A study of Mus musculus with 6 samples.

Results

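The angiopoietin family and Vegf genes were followed in TM4 cells, an established line of mouse Sertoli cells, the somatic cells that nurse germ cells in the seminiferous tubule. The group held 10 genes, Angpt1, Angpt2, Angpt4, Angptl2, Angptl4, Angptl6, Vegfa, Vegfb, Vegfc and Vegfd, and all 10 were among the 24354 genes of the expression table. They were chosen by symbol with measured values of these libraries known, so their differences between groups are given as a description, with no test. The study measured mRNA by RNA-seq in 3 libraries of cells exposed to aluminium chloride (AlCl3) at 100 nM over 30 days and in 3 libraries of control cells, also taken at day 30. Both groups were grown in DMEM-F12 with serum, the labels name no vehicle for the control cells, and neither group carries a stated genetic change. The labels do not say whether the 3 libraries of a group came from separate cultures, so the p-values below speak only for the spread from library to library, which may be technical.

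Angiopoietins are secreted ligands of Tek, a receptor tyrosine kinase of endothelial cells that steadies vessel walls when active. The angiopoietin-like proteins share their coiled-coil and fibrinogen-like build but do not bind Tek, and several act on lipid metabolism by inhibiting lipoprotein lipase. Vegf proteins drive the growth of blood and lymph vessels through the receptors Flt1, Kdr and Flt4, with neuropilins as co-receptors. In the testis, Sertoli cells are a known source of Vegfa.

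Reads in genes, recovered from the steps of the deposited values, ranged from 13381981 in AlCl3 2 to 17340126 in AlCl3 1. Values are FPKM, reads per kilobase of gene scaled to library size, so levels can be compared between genes. Genes with a mean of at least 1 FPKM over the 6 libraries, 11202 in all, were tested with limma on log2(FPKM + 1), and 61.3% of them differed at a Benjamini-Hochberg adjusted p below 0.05. Of all genes tested, 31.2% were higher and 30.2% lower in AlCl3 cells, and the 3 values of each group did not overlap in 66.1%, with AlCl3 higher in 33.7% and lower in 32.4%. Differences also ran with base composition, with a median log2 fold change of -0.53 in the tenth of genes with the highest GC content and 0.33 in the tenth with the lowest. Of 12 Sertoli markers, 10 were in the table and 7 passed the filter, and the markers below it were Wt1, Amh and Clu, at less than 0.4 FPKM on average in both groups. Among those tested with limma, Sox9 rose, at 1.61 FPKM in AlCl3 cells and 1.01 FPKM in control cells, Gata4, Dhh, Inha and Inhbb fell, and Kitl did not pass. The summed level of the Sertoli markers was 61.5 to 63.7 FPKM in AlCl3 libraries and 81.4 to 116 FPKM in control libraries, most of it from Inhbb at 46.0 FPKM in AlCl3 cells and 72.1 FPKM in control cells, while Gata4 had 6.33 FPKM in AlCl3 cells and 11.6 FPKM in control cells. Markers of Leydig cells, germ cells and macrophages stayed low in both groups, with sums of 0.572 to 0.934, 0 to 0.296 and 0.935 to 1.49 FPKM in AlCl3 libraries and of 0.683 to 1.20, 0.0393 to 0.201 and 1.14 to 1.81 FPKM in control libraries.

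Promoter windows are shown so that short motifs near the starts of the genes that differed most can be read beside their values. RefSeq windows from 250 bases before to 50 bases after the start (GRCm38.p6) were found for 7 of the 10 genes, with 8 windows because Vegfa had a pair. They were searched on both strands for ACGTG and GCGTG, the core of the hypoxia response element, for GGGCGG, the core of the Sp1 site, and for TGANTCA, the AP-1 site. The windows of the 3 genes with the largest log2 differences past the filter are printed 5′ to 3′ along the gene's strand, with every match of a motif or its reverse complement in capitals. They are Angptl6 at chr9:20879661-20879960 on the minus strand, Angpt4 at chr2:151910957-151911256 on the plus strand and Angptl2 at chr2:33215711-33216010 on the plus strand.
Angptl6: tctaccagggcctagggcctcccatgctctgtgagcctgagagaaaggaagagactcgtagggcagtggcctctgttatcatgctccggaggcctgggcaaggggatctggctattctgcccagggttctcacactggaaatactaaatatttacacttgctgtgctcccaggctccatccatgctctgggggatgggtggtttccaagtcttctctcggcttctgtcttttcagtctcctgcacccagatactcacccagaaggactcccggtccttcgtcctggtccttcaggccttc
Angpt4: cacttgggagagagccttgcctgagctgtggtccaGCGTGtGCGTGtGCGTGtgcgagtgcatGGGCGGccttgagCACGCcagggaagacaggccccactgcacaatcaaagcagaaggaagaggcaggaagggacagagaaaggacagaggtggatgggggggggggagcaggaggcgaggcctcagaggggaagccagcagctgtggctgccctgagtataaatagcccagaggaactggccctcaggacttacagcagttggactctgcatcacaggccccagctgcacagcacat
Angptl2: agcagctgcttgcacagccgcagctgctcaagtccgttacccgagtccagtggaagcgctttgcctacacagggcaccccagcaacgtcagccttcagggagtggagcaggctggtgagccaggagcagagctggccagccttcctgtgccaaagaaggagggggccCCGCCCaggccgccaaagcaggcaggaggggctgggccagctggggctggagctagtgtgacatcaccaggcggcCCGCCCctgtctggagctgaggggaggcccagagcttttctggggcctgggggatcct
The Angptl6 window held none of the 4 motifs. The Angpt4 window held 4 matches of GCGTG, 3 of them within a short GT-rich repeat, and 1 match of GGGCGG. The Angptl2 window held 2 matches of GGGCGG, both on the opposite strand, and no other motif. A match is a string of letters and not a shown binding site. Of all 32851 RefSeq promoter windows, 32.4% held GCGTG, 19.6% ACGTG, 43.8% either of these cores, 35.7% GGGCGG and 7.81% TGANTCA. Among the 8 windows of the group, 3 held GCGTG, 1 held ACGTG, 6 held GGGCGG and none held TGANTCA. The window that held both hypoxia cores was the inner of the Vegfa pair, at chr17:46025114-46025413 on the minus strand. That window lies within the Vegfa gene, and the outer window, at chr17:46032328-46032627, held neither core. The use of either start in these cells was not tested. GC content was 55.7% in the Angptl6 window, 61.3% in the Angpt4 window and 66.7% in the Angptl2 window, against a median of 52.7% over all windows. It was 62.0% in the outer and 59.3% in the inner Vegfa window. The Vegfb window had 75.3%, the Vegfc window 70.3% and the Vegfd window 42.0%. How often windows of like GC content hold GGGCGG was not tested.

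Of the 3 Tek ligands, Angpt4 was the one with a clear level in control cells, and it was nearly lost in AlCl3 cells, while Angpt2 was low throughout and higher in AlCl3 cells and Angpt1 was at the limit of detection. Angpt4, the mouse counterpart of a human angiopoietin that activates Tek, lies at chr2:151911210-151945337 on the plus strand (GRCm38). Its level was 0.511, 0.0946 and 0.225 FPKM in AlCl3 1 to 3, and 9.57, 13.5 and 12.6 FPKM in control 1 to 3. All AlCl3 libraries lay far below all control libraries. The AlCl3 levels rested on 21, 3 and 9 reads, against 371, 533 and 512 reads in control libraries, and the 3 reads of AlCl3 2 equal the floor used here, which covers counting error only. The means were 0.277 ± 0.213 FPKM in AlCl3 cells and 11.9 ± 2.07 FPKM in control cells (SD, n = 3 each), which is 43.0-fold lower in AlCl3 cells. The ratio was 74.6-fold without AlCl3 1 and 32.4-fold without AlCl3 2, so its size turned on single AlCl3 libraries. On the log2(FPKM + 1) scale, which understates differences of low genes, the difference was -3.34, and it was -5.13 with a pseudocount of 0.1.

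Angpt2, a ligand that can oppose Angpt1 at Tek and loosen vessels, lies at chr8:18690263-18741562 on the minus strand. It stood at 1.42, 1.24 and 1.28 FPKM in AlCl3 libraries and at 0.261, 0.209 and 0.218 FPKM in control libraries, from 92, 62 and 81 reads against 16, 13 and 14 reads. The groups did not overlap, and the ratio of means was 5.72, with AlCl3 higher. The mean over all 6 libraries was 0.770 FPKM, so Angpt2 did not pass the filter. The gene lies within Mcph1 on the opposite strand, whose exons share no base with those of Angpt2 but whose introns cover it. Mcph1 had 4.83, 3.87 and 5.19 FPKM in AlCl3 libraries and 2.98, 3.31 and 3.62 FPKM in control libraries, and with the strand setting of the counting not given, the part of Mcph1 reads in the Angpt2 values was not tested.

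Angpt1, the main activating ligand of Tek, lies at chr15:42424723-42676977 on the minus strand. It had 2, 1 and 2 reads in AlCl3 libraries and 0 reads in each control library. All 6 counts were below the floor of 3 reads, which stood at no more than 0.0424 FPKM in AlCl3 libraries and 0.0347 FPKM in control libraries. No fold is given for it, and its exons share 14.2% of their bases with the antisense gene Gm17473, which is not analysed here.

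Among the angiopoietin-like genes, Angptl6 was the leading one in control cells and Angptl2 in AlCl3 cells, while the groups overlapped in Angptl4. Angptl6, which encodes a secreted growth factor made largely in the liver and known to counter obesity in mice, lies at chr9:20873808-20879727 on the minus strand. It had 3.73, 3.49 and 2.98 FPKM in AlCl3 1 to 3, and 61.5, 56.9 and 50.8 FPKM in control 1 to 3. Libraries of a group lay close together and the groups stood far apart. The means were 3.40 ± 0.383 FPKM in AlCl3 cells and 56.4 ± 5.38 FPKM in control cells (SD, n = 3 each), which is 16.6-fold lower in AlCl3 cells. By mean FPKM the gene ranked 8169 of 24354 in AlCl3 cells and 1085 in control cells. Read counts were 104, 75 and 81 in AlCl3 libraries, against 1616, 1521 and 1398 in control libraries.

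The log2 difference of Angptl6 was -3.70. Its transcript is 63.1% GC, above 99.2% of the genes tested, and the difference was -3.03 once the trend with GC content and transcript length had been removed within each library. Its exons share 265 bases with A230050P20Rik on the opposite strand, and that gene had at most 0.151 FPKM in any library.

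Angptl2, a secreted protein linked to inflammation and known to bind integrins, lies at chr2:33216069-33247717 on the plus strand. It had 31.9, 34.4 and 35.0 FPKM in AlCl3 1 to 3, and 7.68, 10.9 and 11.1 FPKM in control 1 to 3. Every AlCl3 library exceeded every control library. The means were 33.8 ± 1.66 FPKM in AlCl3 cells and 9.89 ± 1.91 FPKM in control cells (SD, n = 3 each), a ratio of 3.41 and a log2 difference of 1.69. Its rank was 1816 in AlCl3 cells and 4781 in control cells. The reads numbered 10241 over the 3 AlCl3 libraries and 3170 over the 3 control libraries. The gene lies within Ralgps1 on the opposite strand, which shares no exon base with it and had 0.408 to 0.555 FPKM in AlCl3 libraries and 1.47 to 2.21 FPKM in control libraries, a difference of the other sign.

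Angptl4, an inhibitor of lipoprotein lipase and a known target of PPARs and of hypoxia, lies at chr17:33773750-33781830 on the minus strand. It had 13.4, 12.5 and 11.1 FPKM in AlCl3 libraries and 11.8, 12.9 and 12.5 FPKM in control libraries. The groups overlapped, with means of 12.3 ± 1.15 FPKM in AlCl3 cells and 12.4 ± 0.562 FPKM in control cells (SD, n = 3 each). The log2 difference was -0.01, within the spread of either group, and its sign turned with the processing, to 0.11 after rescaling to TPM, 0.06 without AlCl3 3 and 0.02 without control 2.

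Vegfa, the main driver of blood vessel growth, was the most abundant of the 10 genes in both groups and its groups overlapped. It lies at chr17:46016993-46032369 on the minus strand. It had 58.3, 74.0 and 67.3 FPKM in AlCl3 1 to 3, and 70.3, 68.4 and 77.4 FPKM in control 1 to 3. AlCl3 1 was the lowest of the 6 libraries, and AlCl3 2 lay above control 1 and control 2. The means were 66.5 ± 7.89 FPKM in AlCl3 cells and 72.0 ± 4.72 FPKM in control cells (SD, n = 3 each) (rank 943 in AlCl3 cells and 851 in control cells by mean level). The log2 difference was -0.12, and 0.00 when the values were rescaled to TPM, a scaling that moved the median of all genes tested to 0.14, against 0.03 as deposited. Read counts were between 4307 and 5768 in the 6 libraries.

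Vegfb, a ligand of Flt1 linked to fatty acid uptake, lies at chr19:6982473-6987651 on the minus strand. It had 9.87, 12.7 and 9.44 FPKM in AlCl3 libraries and 18.5, 17.4 and 25.4 FPKM in control libraries. The groups did not overlap, although control 3 stood well above the other 2 control libraries. The means were 10.7 ± 1.77 FPKM in AlCl3 cells and 20.4 ± 4.33 FPKM in control cells (SD, n = 3 each), 1.91-fold lower in AlCl3 cells. The log2 difference was -0.87. Its transcript is 62.6% GC, above 99.0% of the genes tested, and the difference was -0.21 once corrected for GC content and length.

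Vegfc and Vegfd, ligands of Flt4 that drive lymph vessel growth, differed in opposite directions. Vegfc lies at chr8:54077606-54187096 on the plus strand and had 3.90, 4.51 and 3.81 FPKM in AlCl3 libraries, against 1.70, 2.998 and 3.50 FPKM in control libraries. The groups did not overlap, but control 3 lay close to AlCl3 3. The means were 4.07 ± 0.382 FPKM in AlCl3 cells and 2.73 ± 0.929 FPKM in control cells (SD, n = 3 each), a ratio of 1.49 that was 1.25 without control 1. The log2 difference was 0.47, and it was 0.26 without control 1 and 0.16 once corrected for GC content and length.

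Vegfd lies on chromosome X at chrX:164373378-164402650 on the plus strand. It had 6.51, 7.22 and 6.36 FPKM in AlCl3 libraries and 9.93, 13.4 and 13.5 FPKM in control libraries. Every AlCl3 library lay below every control library. The means were 6.70 ± 0.455 FPKM in AlCl3 cells and 12.3 ± 2.03 FPKM in control cells (SD, n = 3 each), 1.83-fold lower in AlCl3 cells. The log2 difference was -0.78, and -1.05 once corrected for GC content and length.

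**Figure D1:**
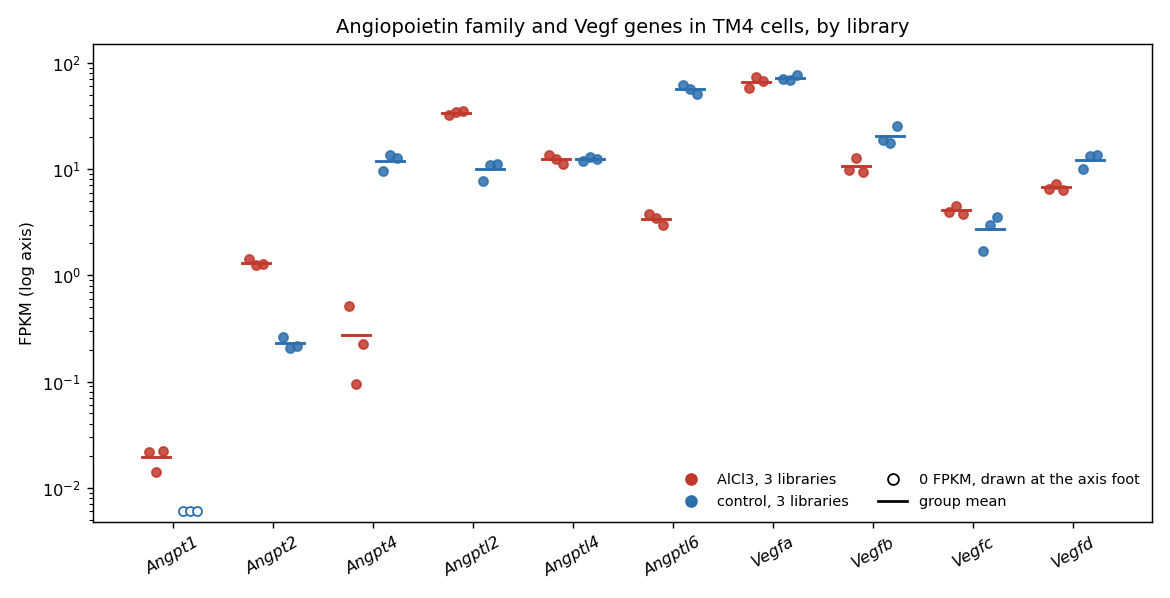
Level of each of the 10 genes in each library in FPKM on a log axis, with AlCl3 libraries in red left of control libraries in blue and a bar at each group mean. Angpt4 and Angptl6 lie far lower in AlCl3 libraries, Angptl2 and Angpt2 lie higher, and the groups of Angptl4 and Vegfa overlap. The 0 values of Angpt1 in control libraries are open circles at the foot of the axis.

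Leaving out Angpt1, whose counts were all below the floor, the groups did not overlap in 7 of 9 genes, with AlCl3 higher in 3 and lower in 4. Of the 8 genes past the filter, 6 did not overlap, 2 with AlCl3 higher and 4 with AlCl3 lower. The background among all genes tested is the 66.1% given above, and nothing is read from the counts since the genes were chosen with this contrast known. The order of levels changed with AlCl3. In AlCl3 cells the highest mean levels were those of Vegfa, Angptl2, Angptl4 and Vegfb in falling order, with Angptl4 and Vegfb overlapping, and Vegfd, Vegfc, Angptl6, Angpt2, Angpt4 and Angpt1 followed without overlap. In control cells they were those of Vegfa, Angptl6, Vegfb, Angptl4, Vegfd and Angpt4, where Angptl4, Vegfd and Angpt4 overlapped. Angptl2, Vegfc, Angpt2 and Angpt1 followed, and Angptl2 overlapped both Vegfd and Angpt4. In bulk RNA, fewer cells that express a gene and less RNA of it per cell cannot be told apart.

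Summed over the 6 angiopoietin family genes, the level was 51.1 ± 0.605 FPKM in AlCl3 cells and 90.8 ± 3.57 FPKM in control cells (SD, n = 3 each). Angptl6 made up 6.65 ± 0.720% of this sum in AlCl3 cells and 62.1 ± 5.01% in control cells. Angptl2 made up 66.1 ± 3.31% in AlCl3 cells and 10.9 ± 2.20% in control cells. The leading gene of the family was thus a different one in each group. The share of Angptl4 was 24.1 ± 2.17% in AlCl3 cells and 13.6 ± 0.683% in control cells, although the groups overlapped in its own level, with a smaller family sum in AlCl3 cells. Angpt4 accounted for 0.543 ± 0.419% in AlCl3 cells and 13.1 ± 2.22% in control cells.

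The 4 Vegf genes summed to 87.9 ± 9.99 FPKM in AlCl3 cells and 107 ± 10.7 FPKM in control cells (SD, n = 3 each). Vegfa made up most of the sum in every library, 75.6 ± 1.66% in AlCl3 cells and 67.2 ± 2.69% in control cells. The share of Vegfb was 12.1 ± 1.10% in AlCl3 cells and 18.9 ± 2.13% in control cells. Vegfc held 4.64 ± 0.294% in AlCl3 cells and 2.51 ± 0.714% in control cells, and Vegfd 7.65 ± 0.554% in AlCl3 cells and 11.4 ± 1.61% in control cells.

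**Figure D2:**
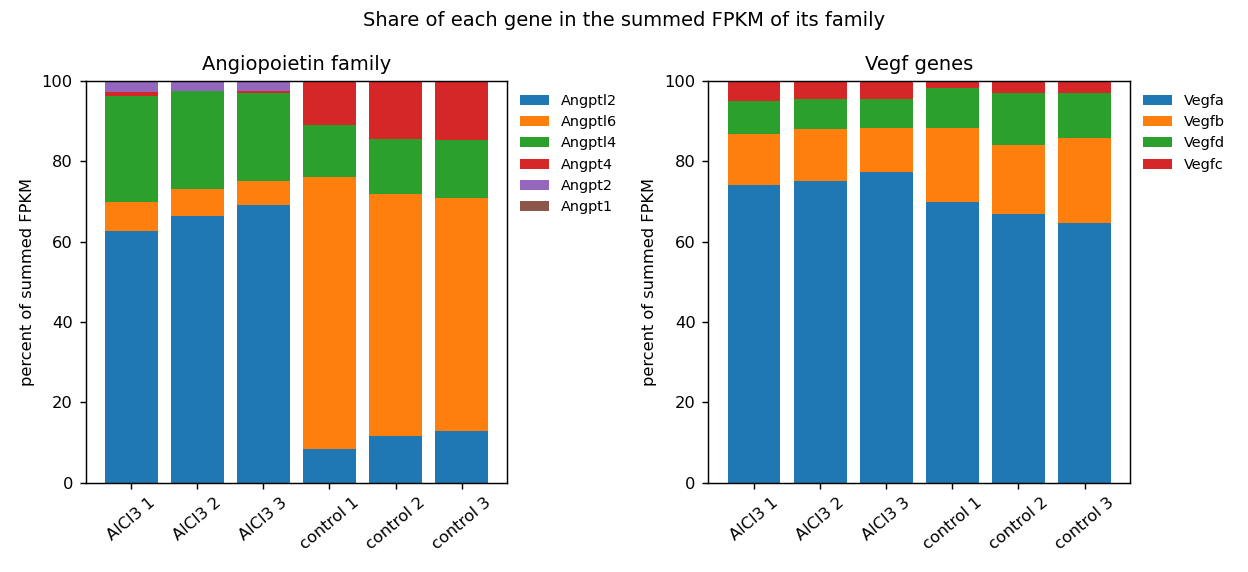
Share of each gene in the summed FPKM of the 6 angiopoietin family genes and of the 4 Vegf genes, as stacked bars in percent, 1 bar per library, AlCl3 libraries left of control libraries. Angptl2 takes 62.6 to 69.1% of the angiopoietin family sum in AlCl3 libraries, and Angptl6 takes 58.2 to 67.8% in control libraries, while Vegfa leads the Vegf sum in all 6.

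The signalling receptors Tek, Kdr and Flt1 stayed below 0.1 FPKM in every library. Tek had 1, 0 and 0 reads in AlCl3 libraries and 0, 2 and 0 reads in control libraries, and Kdr, the main signalling receptor of Vegfa, had 2, 5 and 0 reads in AlCl3 libraries and 5, 2 and 1 reads in control libraries. Flt1, a high-affinity receptor of Vegfa and Vegfb, had 15, 11 and 22 reads in AlCl3 libraries and 4, 1 and 4 in control libraries, with mean levels of 0.0727 FPKM in AlCl3 cells and 0.0131 FPKM in control cells. The co-receptor Nrp1 had 0.362 ± 0.0949 FPKM in AlCl3 cells and 0.423 ± 0.0820 FPKM in control cells (SD, n = 3 each), below the filter. Its relative Nrp2 passed the filter, at 10.0 ± 1.05 FPKM in AlCl3 cells and 8.44 ± 1.71 FPKM in control cells, and did not pass the test (limma adjusted p = 0.219). Markers of endothelial cells, which carry Tek and Kdr in tissue, were near 0 apart from Egfl7, in a list that includes these 2 receptors. Of 14 endothelial markers 8 were in the table and none passed the filter, and they summed to 0.462 to 0.632 FPKM in AlCl3 libraries and 1.58 to 1.89 FPKM in control libraries, mostly Egfl7. Egfl7 had 0.310 ± 0.0630 FPKM in AlCl3 cells and 1.57 ± 0.179 FPKM in control cells. Cdh5 went the other way, with 10, 6 and 3 reads in AlCl3 libraries and 0 reads in each control library.

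The 7 gene lists around the group were chosen with earlier results of these data known. Their counts and medians are therefore given as a description. Among 16 receptors and co-receptors, 12 were in the table and 8 were tested. Of these, 2 (25%) rose, 1 (12.5%) fell and 5 did not pass, against 31.2% higher and 30.2% lower of all genes tested. Itgb1, the integrin beta chain that pairs with most alpha chains, rose to 235 ± 38.3 FPKM in AlCl3 cells, against 155 ± 4.51 FPKM in control cells (log2 fold change 0.59 ± 0.149 SE, limma adjusted p = 0.00722), and the log2 fold change was 0.29 with the GC and length trend removed (limma adjusted p = 0.0212). Pdgfra, a receptor of platelet-derived growth factors, rose to 10.5 ± 1.95 FPKM, against 6.82 ± 1.30 FPKM in control cells (adjusted p = 0.0165 by limma), a call that was lost without AlCl3 3 (adjusted p = 0.0638). Pdgfrb, its relative on pericytes, fell to 2.75 ± 0.287 FPKM, against 7.60 ± 1.18 FPKM in control cells, by 1.19 on the log2 scale (limma adjusted p = 8.14e-05). With the GC and length trend removed, the log2 fold change of Pdgfrb was -0.90. Pericyte markers, a list that includes Pdgfrb, summed to 2.66 to 3.38 FPKM in AlCl3 libraries and 8.80 to 12.0 FPKM in control libraries, from Pdgfrb and Notch3 for the most part with Rgs5 and Cspg4 near 0. Of 9 further ligands of these families 8 were in the table and 2 were tested. Pdgfa fell to 6.52 ± 0.702 FPKM in AlCl3 cells, against 11.8 ± 0.264 FPKM in control cells (limma adjusted p = 0.000373). Its exons share 26.1% of their bases with an antisense gene that had at most 0.579 FPKM. Pdgfc had 8.61 ± 0.829 FPKM in AlCl3 cells and 8.61 ± 1.06 FPKM in control cells.

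Proteases that cut these ligands and lipases that angiopoietin-like proteins restrain formed a list of 14 genes, 12 of them in the table and 9 tested. In this list 2 (22.2%) rose, 4 (44.4%) fell and 3 did not pass, against 31.2% higher and 30.2% lower of all genes tested. The median log2 fold change was -0.39, against 0.03 over all genes tested. With the GC and length trend removed it was -0.09, against 0.002 over all genes tested, with 3 genes higher and 4 lower. Lpl, the lipoprotein lipase that Angptl4 inhibits, had 14.4, 11.0 and 18.6 FPKM in AlCl3 libraries and 43.4, 49.4 and 51.0 FPKM in control libraries. It fell by 1.67 on the log2 scale (SE 0.174, limma adjusted p = 4.28e-05), while the groups of Angptl4 itself overlapped. Lipg, the endothelial lipase, fell to 3.70 ± 0.461 FPKM in AlCl3 cells, against 9.24 ± 1.53 FPKM in control cells (limma adjusted p = 0.000165), and Lmf1, a factor that matures lipases, fell to 0.766 ± 0.0876 FPKM, against 2.15 ± 0.411 FPKM in control cells (limma adjusted p = 0.000621). Plau, the urokinase that frees growth factors from matrix by way of plasmin, rose to 54.6 ± 5.08 FPKM in AlCl3 cells, against 27.4 ± 4.64 FPKM in control cells (limma adjusted p = 0.000394). Plat, the other plasminogen activator listed, fell to 16.5 ± 0.352 FPKM, against 25.8 ± 3.99 FPKM in control cells (limma adjusted p = 0.00332). Furin, a convertase that cuts the precursors of Vegfc and Vegfd, had 9.55 ± 0.454 FPKM in AlCl3 cells and 11.7 ± 2.04 FPKM in control cells and did not pass (limma adjusted p = 0.139). Pcsk7, another convertase listed, rose to 5.57 ± 0.738 FPKM, against 3.19 ± 0.108 FPKM in control cells (limma adjusted p = 0.00161).

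In a list of extracellular proteins around Vegf, most of them known to bind it or limit vessel growth, falls outnumbered rises. Of the 14 genes, all in the table and 12 tested, 8 (66.7%) fell, 1 (8.33%) rose and 3 did not pass. Of all genes tested, 30.2% were lower and 31.2% higher. The median log2 fold change of the list was -1.03, against 0.03 over all genes tested. Ccn2, a matricellular protein that binds Vegfa, had 24.4, 25.7 and 22.2 FPKM in AlCl3 libraries and 133, 185 and 202 FPKM in control libraries (log2 fold change -2.78 ± 0.164 SE, limma adjusted p = 3.23e-06). Timp3, a metalloproteinase inhibitor that blocks Vegfa at Kdr, fell to 0.308 ± 0.0261 FPKM in AlCl3 cells, against 3.34 ± 0.371 FPKM in control cells (limma adjusted p = 5.70e-06), by 1.73 on the log2 scale or by 3.07 with a pseudocount of 0.1. Sema3f, a semaphorin that competes at Nrp2, fell to 0.201 ± 0.130 FPKM, against 2.92 ± 0.305 FPKM in control cells (limma adjusted p = 8.93e-06). The log2 fold change of Sema3f was -1.71, with -3.41 for a pseudocount of 0.1 and -1.27 with the GC and length trend removed. Thbs1, a thrombospondin that inhibits vessel growth, fell to 119 ± 5.56 FPKM, against 245 ± 57.9 FPKM in control cells (limma adjusted p = 0.00117). Not every member limits vessel growth. Ccn1, a matricellular protein known to favour it, fell by 2.49 on the log2 scale (limma adjusted p = 2.55e-05), and the gene that rose was Vash2, a vasohibin also known to favour it, at 6.11 ± 0.763 FPKM in AlCl3 cells and 3.77 ± 0.495 FPKM in control cells (limma adjusted p = 0.00495). Smooth muscle and myoid markers summed to 211 to 240 FPKM in AlCl3 libraries and 512 to 542 FPKM in control libraries, mostly Acta2. Of the 3 tested with limma, 2 fell (Acta2 and Actg2). Cnn1 did not pass, at 4.21 ± 0.495 FPKM in AlCl3 cells and 5.09 ± 0.541 FPKM in control cells (limma adjusted p = 0.156). Below the filter, Des was lower in AlCl3 cells, while the groups of Tagln and Myh11 overlapped. The part of these markers in the falls of the matrix genes was not tested.

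**Figure D3:**
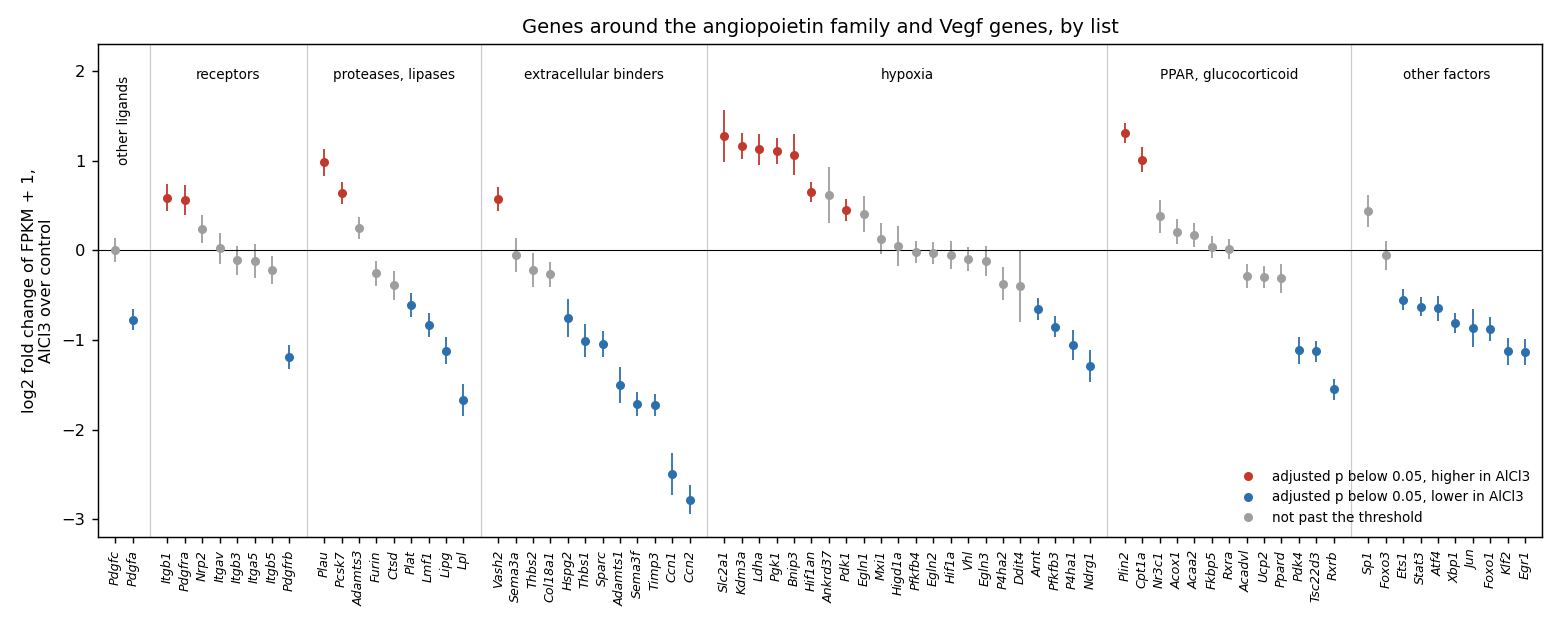
Log2 fold change of FPKM + 1, AlCl3 over control, for the 76 tested genes of 7 lists around the angiopoietin family and Vegf genes, with bars of 1 standard error from limma. Red points were higher and blue points lower in AlCl3 cells at an adjusted p below 0.05, and grey points did not pass. The extracellular binders and the other factors lie mostly below 0, and the hypoxia list lies on both sides.

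Hypoxia genes moved in both directions. Vegfa and Angptl4 are known targets of hypoxia-inducible factors. Of 27 hypoxia genes 25 were found in the table and 22 were tested, and the symbol Ero1a was not matched to an identifier. Among those tested, 7 (31.8%) were higher, 4 (18.2%) lower and 11 not past the test. Of all genes tested, 31.2% were higher and 30.2% lower. The median log2 fold change was 0.02, against 0.03 over all genes tested. Hif1a, the oxygen-regulated subunit whose control is mostly at the protein level, had 22.5 ± 3.57 FPKM in AlCl3 cells and 23.4 ± 3.83 FPKM in control cells (SD, n = 3 each) and did not pass the limma test (adjusted p = 0.775). Once corrected for GC content and length its log2 fold change was -0.37 and passed (limma adjusted p = 0.0107). Its partner Arnt fell to 11.0 ± 1.16 FPKM, against 17.8 ± 1.29 FPKM in control cells (limma adjusted p = 0.00130). Hif1an, an inhibitor of Hif1a, rose to 11.0 ± 0.689 FPKM, against 6.64 ± 0.262 FPKM in control cells (limma adjusted p = 0.000722). The regulators Vhl, Egln1, Egln2 and Egln3 did not pass (limma adjusted p from 0.110 to 0.858). Pgk1, a glycolytic kinase, rose to 594 ± 12.9 FPKM in AlCl3 cells, against 276 ± 30.6 FPKM in control cells, a log2 change of 1.11 (limma adjusted p = 0.000158). Kdm3a, a histone demethylase, rose to 7.24 ± 1.02 FPKM, against 2.67 ± 0.433 FPKM in control cells (limma adjusted p = 0.000104). Pfkfb3, a regulator of glycolysis, fell to 6.14 ± 0.402 FPKM, against 11.9 ± 1.07 FPKM in control cells (limma adjusted p = 0.000215).

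The AlCl3 libraries were uneven in this list. AlCl3 2 held the highest value of its group in 14 of the 22 tested hypoxia genes, AlCl3 3 in 7 and AlCl3 1 in 1, while over all genes tested AlCl3 2 was the highest of its group in 38.5%. The glucose transporter gene Slc2a1 had 31.2, 77.8 and 40.8 FPKM in AlCl3 1 to 3, and 14.6, 20.3 and 21.5 FPKM in control 1 to 3. The stress gene Ddit4 had 49.8, 182 and 70.0 FPKM in AlCl3 libraries and 100, 103 and 143 FPKM in control libraries. Vegfa was also highest of its group in AlCl3 2, and without that library its log2 difference was -0.20. Without AlCl3 2 the hypoxia list had 7 genes higher and 6 lower.

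Nuclear receptors and their lipid targets gave 2 genes (15.4%) higher, 3 (23.1%) lower and 8 not past the test among 13 tested of 18. The shares of all genes tested were 31.2% higher and 30.2% lower. The median log2 fold change of the list was 0.01. Ppard, the PPAR that passed the filter and a known activator of Angptl4, had 8.89 ± 1.52 FPKM in AlCl3 cells and 11.3 ± 2.08 FPKM in control cells and did not pass (limma adjusted p = 0.124). It passed with a log2 fold change of -0.43 without AlCl3 2 and -0.45 without control 1 (limma adjusted p = 0.0387 and 0.0337). Plin2, a lipid droplet protein and PPAR target, rose to 49.5 ± 3.03 FPKM in AlCl3 cells, against 19.4 ± 1.05 FPKM in control cells (limma adjusted p = 1.38e-05). Rxrb, a partner receptor of PPARs, fell to 15.5 ± 0.826 FPKM, against 47.5 ± 4.31 FPKM in control cells (limma adjusted p = 7.53e-06), by 1.55 on the log2 scale, or by 0.98 with the GC and length trend removed. The glucocorticoid target Tsc22d3 fell to 4.95 ± 0.216 FPKM, against 12.0 ± 1.22 FPKM in control cells (limma adjusted p = 4.22e-05). Fkbp5, another such target, had 6.40 ± 0.312 FPKM in AlCl3 cells and 6.22 ± 0.770 FPKM in control cells. It did not pass (limma adjusted p = 0.787).

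Of the other transcription factors listed as known to act on Vegf or angiopoietin genes, most of those tested fell. Of 13 factors 11 were in the table and 10 were tested. In this list 8 (80%) fell, none rose and 2 did not pass, against 30.2% lower and 31.2% higher of all genes tested. The median log2 fold change was -0.73, against 0.03 over all genes tested. The factor Sp1 did not pass, with a log2 value 0.44 above control (adjusted p = 0.0608 by limma), but was called higher in 4 alternatives, with limma adjusted p between 0.00432 without AlCl3 2 and 0.0456 after rescaling to TPM. Egr1, an immediate early factor, fell to 31.2 ± 1.87 FPKM in AlCl3 cells, against 70.4 ± 13.0 FPKM in control cells (limma adjusted p = 0.000152), by 1.13 on the log2 scale, or by 0.73 with the GC and length trend removed. Xbp1, a factor of the unfolded protein response, fell to 36.7 ± 2.31 FPKM, against 64.9 ± 2.87 FPKM in control cells (limma adjusted p = 0.000223). Klf2, a factor known from endothelial cells under flow, fell to 1.15 ± 0.205 FPKM, against 3.70 ± 0.775 FPKM in control cells, by 1.12 on the log2 scale (limma adjusted p = 0.000183), or by 0.52 with the GC and length trend removed. Foxo1, a known activator of Angpt2, fell to 5.05 ± 0.295 FPKM in AlCl3 cells, against 10.2 ± 1.57 FPKM in control cells (limma adjusted p = 0.000412). Angpt2, which lay below the filter, was higher in AlCl3 cells, and a link between Foxo1 and Angpt2 was not tested. Over the 7 lists, 76 of 111 genes were tested and 56.6% of these differed, against 61.3% of all genes tested. By direction, 14 or 18.4% were higher, against 31.2% of all genes tested, and 29 or 38.2% were lower, against 30.2%. Nothing is read from these list counts, since the lists were chosen with earlier results of these data known.

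The genes whose patterns were most like those of the group were found by the root-mean-square difference of mean-centred log2(FPKM + 1) values over the 6 libraries, a description that carries no test. For Angptl6 these were Gadd45a, a growth arrest gene, at a difference of 0.0959, the pentraxin gene Ptx3 at 0.144 and Map3k7cl at 0.195. For Angpt4 they were Map3k7cl at 0.148, the corneodesmosin gene Cdsn at 0.195 and Chac1, which degrades glutathione, at 0.251. Map3k7cl, at 0.645 ± 0.127 FPKM in AlCl3 cells and 15.9 ± 0.628 FPKM in control cells (SD, n = 3 each), was thus near both. For Angptl2 they were the fatty acid synthase gene Fasn at 0.0738, the chromatin factor Uhrf1 at 0.0947 and the folate enzyme gene Mthfd1l at 0.0981. Fasn had 47.3 ± 4.82 FPKM in AlCl3 cells and 15.0 ± 3.17 FPKM in control cells. The closest gene to Vegfa was the ephrin gene Efna4 at 0.0301, to Vegfb Tlnrd1 at 0.0624, to Vegfd the sterol-regulated factor gene Srebf2 at 0.0399 and to Angptl4 Hgh1 at 0.0349.

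**Figure D4:**
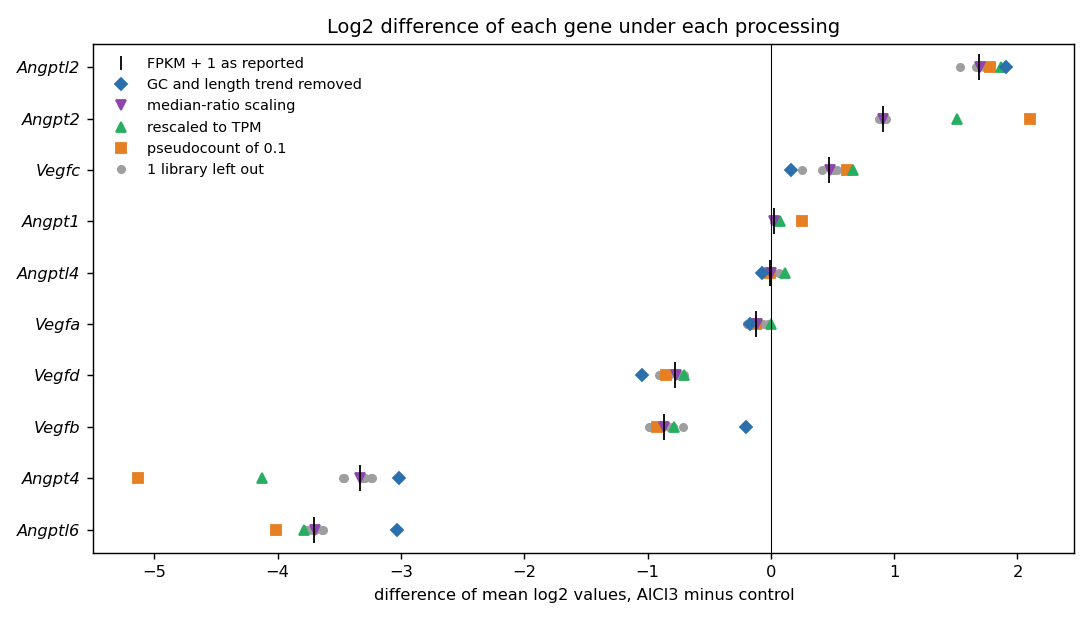
Log2 difference of each of the 10 genes, AlCl3 minus control, as reported (black bar) and under other processing, with 1 library left out, a pseudocount of 0.1, rescaling to TPM or median-ratio scaling and, for the 8 genes past the filter, removal of the GC and length trend. Angptl6 ranges from -4.01 to -3.03 and Angpt4 from -5.13 to -3.02, Vegfb moves from -0.87 to -0.21 when the GC and length trend is removed, and Vegfa and Angptl4 stay near 0.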

How the data were processed

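RNA-seq of 6 TM4 libraries was grouped by the sample titles into AlCl3 and control, 3 each. The deposited values are FPKM made by the authors, 1 column per library. The submitters' processing notes name the aligner HISAT2 2.1.0 and the build GRCm38. For the read counter, annotation and strand setting, the sources used here give nothing. The labels' extraction protocol mentions retinas although the samples are TM4 cells, and retina markers summed to at most 0.190 FPKM in any library. Gene symbols, positions and lengths were taken from GENCODE M21, which held 24300 of 24354 identifiers. Steps of the values gave whole reads, within 0.01, for 98.9% of genes in each library, and 1 read per kb corresponded to 0.0568 to 0.0736 FPKM. Floors of 3 reads cover counting error only.

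Genes with a mean of at least 1 FPKM entered a limma fit (3.58.1, R 4.3.3) of log2(FPKM + 1), two-sided, with a variance trend and no covariate, and p-values were adjusted by Benjamini-Hochberg over all 11202 genes. The step was tested on simulated data. Values are mean ± SD of 3 libraries. The genes of the group, the 7 pathway lists and the 8 marker lists were chosen with earlier results of these data known. Named genes were, in each list, up to 3 tested genes with the smallest p, with Tek, Kdr, Flt1, Nrp1, Lpl, Hif1a and Ppard whatever their value, and the 3 genes most like each member with a mean of at least 1 FPKM. The genes most like Vegfc are not reported here. Nrp2, Lmf1, Furin, Pcsk7, Plat, Thbs1, Ccn1, Vash2, Sp1, Slc2a1, Ddit4 and Foxo1 were added after their values were seen. So were Arnt, Hif1an, Vhl, Egln1, Egln2, Egln3, Cpt1a, Pdk4, Fkbp5 and the endothelial marker Cdh5. Adamts3 and the genes below the filter in the closing section were also added in that way. Epas1, Tie1, Flt4 and Pparg are not analysed here, and protein sequences were not used here. Promoters are RefSeq windows of GRCm38.p6. Alternatives changed the pseudocount, filter, scaling, libraries, GC and length trend and replicate block.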

Additional observations from a re-analysis of the deposited data

How the results depend on the processing

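Over 13 alternatives, the number of genes called higher in AlCl3 cells ranged from 2416 to 3785, against 3490 as reported, and the number called lower from 2260 to 3865, against 3379. Among the pathway genes, calls ranged from 11 to 20 higher and from 24 to 37 lower, against 14 and 29. All these counts were within 1.5 times the reported ones. With each library left out in turn, they were 2920 to 3631 higher and 2872 to 3470 lower for all genes, and 13 to 16 higher and 29 to 37 lower for the pathway genes. For the 22 tested pathway genes named by rule, 271 of 282 alternative values kept sign and call, 6 uncalled ones changed sign (3 each for Hif1a and Pdgfc), 2 lost the call (Pdgfra without AlCl3 3 and with no filter), 3 gained it (Hif1a and Ppard, given above) and no called gene turned its sign. For the 10 genes of the group, 11 of 98 values moved by more than the spread between replicates, in Angptl6, Angpt1, Angpt2, Angpt4, Vegfb and Vegfd. The sign turned in 4 values, 3 of Angptl4 and 1 of Vegfa, whose groups overlap. Rescaled to TPM, Angpt4 stood at -4.13 and Angpt2 at 1.51, and Angpt2 at 2.10 with a pseudocount of 0.1.

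The replicate numbers of the titles were also fitted as a replicate block, which gave 3778 genes higher and 3597 lower, and 17 and 32 pathway genes. The correlations of same-numbered libraries' deviations were 0.202, 0.0968 and 0.385, against -0.363 to 0.168 for other numbers, and AlCl3 2 correlated best with control 1. The labels do not say that a number marks a shared culture or day, so the samples are taken to share only a number.

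The count models (edgeR and DESeq2) on the recovered reads, planned as alternatives, were not run, since the deposited values are FPKM. Timp3, Sema3f, Kdm3a and Klf2 have no value under the filter of 5 FPKM, the GC and length correction none for Angpt1 and Angpt2, and filters and the replicate block leave the untested differences of the 10 genes as they are. Libraries with 3 or fewer reads limit Angpt1 and the Angpt4 level of AlCl3 2, and 3 libraries per group limit all values.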

Other observations

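Several genes around the group lay below the filter of 1 FPKM and were not tested, and they were picked here after their values were seen. Ccbe1, a secreted cofactor that lets Adamts3 cut the Vegfc precursor, had 238, 169 and 321 reads in AlCl3 libraries and 70, 79 and 98 reads in control libraries, or 1.37 ± 0.309 FPKM in AlCl3 cells and 0.447 ± 0.0667 FPKM in control cells (SD, n = 3 each). Adamts3 itself had 4.91 ± 0.373 FPKM in AlCl3 cells and 3.98 ± 0.363 FPKM in control cells and did not pass the test (limma adjusted p = 0.0968). Pdgfb, a ligand of Pdgfrb, had 4, 3 and 2 reads in AlCl3 libraries and 26, 31 and 36 reads in control libraries. Fabp4, a fatty acid carrier and PPAR target, had 3, 4 and 1 reads in AlCl3 libraries and 46, 39 and 41 reads in control libraries. Ca9, a carbonic anhydrase induced by hypoxia, had 9, 5 and 9 reads in AlCl3 libraries and 24, 34 and 55 reads in control libraries. Its exons share 9.29% of their bases with the antisense gene Gm12454. That gene had 0.0680 to 0.215 FPKM in AlCl3 libraries and 1.09 to 1.28 FPKM in control libraries. With the strand setting not given, the part of Gm12454 reads in the Ca9 values was not tested.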
